A study of Mus musculus with 26 samples.

Results

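Interferon-stimulated and antigen presentation genes were followed in RNA-seq libraries of mouse embryonic fibroblasts (MEFs), embryonic heart and embryonic liver with or without a DNA methyltransferase. The list held 48 genes, all found by symbol among the 52454 gene symbols of the deposited expression table: 42 interferon-stimulated genes and 6 antigen presentation genes. The list was drawn up with earlier results of these libraries known, from their values in the heart, liver, MEF and GSK126 comparisons, so those values are given as a description and support nothing by themselves. Averaged over the 10 libraries, 43 members reached 1 FPKM (a read level divided by transcript length and library depth); *Oasl1*, *Oas2*, *Oas3*, *Mx2* and *Zbp1* did not.

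Each of the 10 libraries stood for 1 condition. Hearts and livers at E14.5, and MEFs taken at E14.5 and used at passage 1, carried the strain label C57BL6 and the sex label male, and per the study's methods came from crosses of *Dnmt3a* heterozygous knockout (KO) mice. The titles number the WT heart and liver 4 and those labelled *Dnmt3a* KO 25, without saying what the numbers mark. If they mark embryos, embryo and genotype cannot be told apart. WT MEFs and MEFs labelled *Dnmt3a* KO received either DMSO, the solvent, or GSK126, an inhibitor of the histone H3 lysine methyltransferase EZH2. The 2i-MEFs were female fibroblasts of the F1 (129X1/SvJ and MSM/Ms) background, also E14.5 and passage 1, which the study grew from chimeric embryos made with *Dnmt3a* KO or *Dnmt3b* KO embryonic stem cells and kept by antibiotic selection. Both 2i-MEF libraries carry a knockout. The 16 samples measured for DNA methylation were not used here. None of the 10 RNA-seq libraries is of WT 2i-MEFs.

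Type I interferons bind the IFNAR receptor, whose kinases phosphorylate STAT proteins such as STAT2. With IRF9 these form a complex that binds the interferon-stimulated response element in promoters and switches on genes that sense viral RNA, degrade it, trap virus particles or tag proteins with ISG15. Antigen presentation genes of MHC class I also respond to interferon gamma, in part through IRF1, and display peptides on the cell surface.

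Each condition had 1 library, and no p-value is given. Ratios were taken as log2 of FPKM + 1. A member was counted as higher or lower when it differed at least 2-fold on that scale. Intervals of ratios cover counting error only, with all reads placed on the longest transcript. Intervals of medians give the spread over the chosen members, which are not independent samples. They give no error of a condition. Estimated depth was 9180617 to 26194366 mapped reads, so that 1 FPKM on 2000 bases stood for 16.5 to 47.2 reads. RNA of the targeted gene was higher in the libraries labelled KO than in WT in heart and MEFs, and lower in liver. *Dnmt3a* FPKM was 55.0 (WT) and 125 (labelled KO) in heart and 53.5 and 12.7 in liver. It was 26.1 and 85.7 in MEFs with DMSO and 19.3 and 84.5 in MEFs with GSK126. In 2i-MEFs it was 4.21 with *Dnmt3a* KO and 23.9 with *Dnmt3b* KO. How a disrupted allele changes the RNA level is not known here, so these levels do not settle the labels. The KO libraries of heart, liver and MEFs are therefore called "labelled *Dnmt3a* KO". Summed FPKM of 6 cardiomyocyte markers was 14748 to 15856 in heart and at most 31.6 elsewhere, and that of 6 hepatocyte markers was 10917 to 17922 in liver and at most 33.4 elsewhere. The 10 macrophage markers summed to 1358 to 1938 FPKM in MEFs, 259 to 406 in liver, 125 to 135 in heart and 16.4 to 29.2 in 2i-MEFs. In bulk samples, fewer cells of a type and less RNA per cell cannot be told apart.

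Levels of the 42 interferon-stimulated members, as the median FPKM over members, ran from 1.52 in WT heart through 2.14 in *Dnmt3a* KO 2i-MEFs, 2.51 in heart labelled KO, 2.83 in WT liver, 3.68 in MEFs labelled KO with DMSO, 3.75 in *Dnmt3b* KO 2i-MEFs and 5.002 in WT MEFs with DMSO to 5.63 in MEFs labelled KO with GSK126, 5.80 in the liver labelled KO and 7.10 in WT MEFs with GSK126. The liver labelled KO thus ranked next to the MEFs with GSK126, well above WT liver. Without replicates, the spread that would separate neighbours in this order is not known. Antigen presentation members ranked differently: their median log2(FPKM + 1) was 2.66 and 2.77 in hearts (WT, then labelled KO), 3.56 and 4.49 in *Dnmt3b* KO and *Dnmt3a* KO 2i-MEFs, 4.89 to 5.29 in liver and DMSO-treated MEFs, and 5.96 and 6.15 in WT and KO-labelled MEFs with GSK126. *B2m*, the invariant light chain of class I molecules, was the highest member in every library, from 120 FPKM in WT heart to 857 FPKM in MEFs labelled KO with GSK126.

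**Figure D1:**
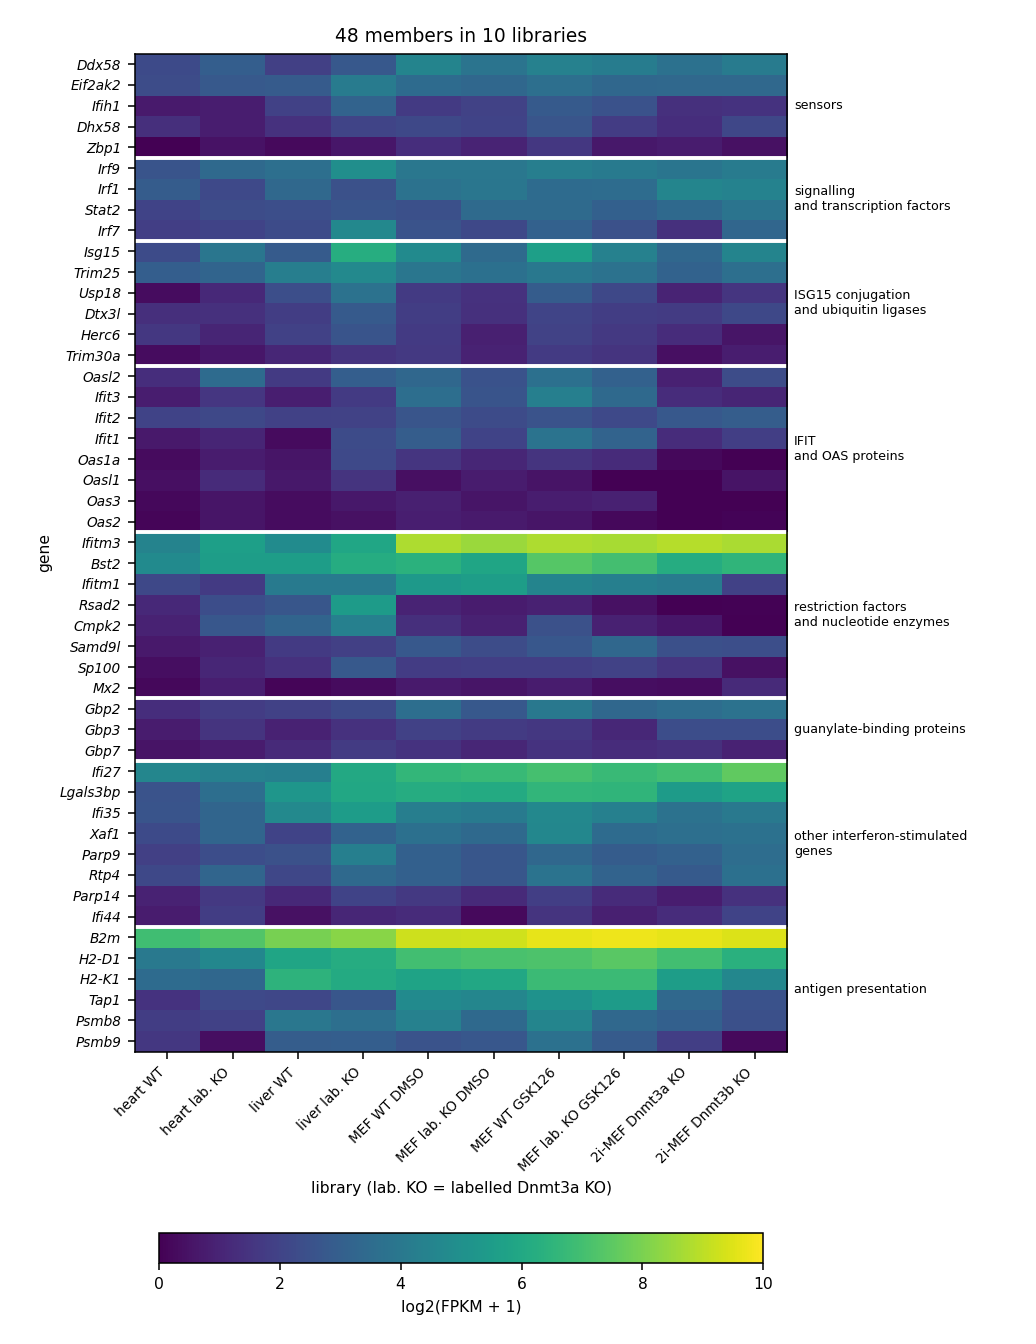
Levels of the 48 members (rows, grouped by role) in the 10 libraries (columns) as log2(FPKM + 1). *B2m* is the brightest row in all libraries, *Ifitm3* is high only in the fibroblast columns (365 to 476 FPKM against 21 to 58.7 in heart and liver), and the *Isg15*, *Irf7* and *Rsad2* rows brighten in the liver labelled *Dnmt3a* KO.

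The liver labelled *Dnmt3a* KO had higher levels of interferon-stimulated genes than WT liver, and antigen presentation genes moved little. Of the 48 members, 18 were at least 2-fold higher and 0 at least 2-fold lower, against 0.890% and 1.72% of the 14150 genes averaging 1 FPKM or more. The median log2 ratio of the 42 interferon-stimulated members was 0.86 (95% interval over members 0.60 to 1.14), with 40 of 42 above 0, where all genes had a median of −0.08 and 36.8% above 0. For the 6 antigen presentation members it was 0.15, over a range of −0.37 to 0.54. By role, all 8 IFIT and OAS genes, all 6 genes of ISG15 conjugation and ubiquitin ligation, all 5 sensors, all 3 guanylate-binding proteins and 7 of 8 restriction factors and nucleotide enzymes were above 0, with median log2 ratios of 0.86, 0.84, 0.86, 0.47 and 0.83.

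The largest log2 ratio of FPKM + 1 in liver was that of *Isg15* (chr4, minus strand), which encodes the ubiquitin-like protein that is conjugated to other proteins after interferon exposure. It measured 6.32 FPKM in WT liver and 73.7 FPKM in the liver labelled KO, an 11.7-fold higher level (9.44 to 14.6). The KO-labelled liver was the highest of all 10 libraries for *Isg15*. *Rsad2*, which encodes viperin, an enzyme that makes a chain-terminating nucleotide, was 5.46 and 44.5 FPKM, 8.14-fold higher (7.46 to 8.90). Its neighbour *Cmpk2*, a mitochondrial nucleotide kinase, was 8.42 and 19.3 FPKM. These adjoining genes, at chr12:26442746-26479837 (mm10), both stood higher in the liver labelled KO, but *Rsad2* by the larger factor.

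Among transcription factors in liver, *Irf7*, the amplifier of type I interferon transcription, was 3.93 FPKM in WT and 24.2 FPKM in the KO-labelled library (log2 ratio 2.35). *Irf9*, the DNA-binding partner of STAT2, was 11.6 and 29.9 FPKM (log2 ratio 1.29), and *Stat2* was 4.22 and 5.10 FPKM (log2 ratio 0.22). *Irf1*, which interferon gamma induces, had the opposite sign: 9.42 FPKM in WT and 4.63 FPKM in the KO-labelled liver (log2 ratio −0.89). It was the lowest ratio of any member in liver.

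The RNA sensors all had higher values in the KO-labelled liver. *Ifih1* was 2.83 and 8.04 FPKM (log2 ratio 1.24) and *Eif2ak2*, the kinase PKR that stops translation on double-stranded RNA, was 6.27 and 16.95 FPKM (1.30). *Ddx58*, which encodes RIG-I, was 2.70 and 5.74 FPKM (0.86). Of the IFIT and OAS genes, *Ifit1*, which binds foreign RNA caps, was 0.217 and 3.86 FPKM, a ratio of 17.8 (10.4 to 33.0) that rests on 14 reads in WT liver. Its neighbours within chr19:34550694-34650009 did not match it: *Ifit3* was 0.790 and 2.26 FPKM, and *Ifit2* was 2.79 and 2.96 FPKM. *Oas1a* and *Oasl2*, of the oligoadenylate synthetase family that activates RNA degradation, had log2 ratios of 1.66 and 1.30, while *Oas2* and *Oas3* stayed under 0.6 FPKM in both livers.

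The other members at least 2-fold higher in the KO-labelled liver were *Parp9* (4.58 and 19.1 FPKM), *Ifi27* (19.2 and 65.3 FPKM), *Sp100*, *Usp18*, *Rtp4*, *Xaf1*, *Ifitm3* and *Dtx3l*, with log2 ratios of 1.03 to 1.84. *Usp18*, the protease that removes ISG15 and damps receptor signalling, was 4.31 and 12.7 FPKM. *Parp9* and *Dtx3l*, whose proteins act as a pair, share 682 bases on opposite strands, and whether strand was used in counting is not stated, so their values are uncertain. *Rtp4* shares 300 bases with *Masp1*, *Irf9* 123 with *Rnf31* and *Irf7* 45 with *Phrf1*, all of them expressed, and *Usp18*, *Herc6* and *Rtp4* also overlap annotated genes of low level. Reads of close relatives such as the IFIT, OAS and IFITM genes may be split between them. Markers of other cells differed between these livers too. All 10 macrophage markers were lower in the KO-labelled library (summed FPKM 406 and 259, median log2 ratio −0.42), 6 of 7 leukocyte markers were lower (413 and 278), all 6 fibroblast markers were lower (494 and 257), and 4 of 7 erythroid markers were higher (58881 and 86820, most of it *Hba-a1* and *Hbb-bt*). The 6 hepatocyte markers summed to 17922 in WT and 10917 in the KO-labelled library, with 3 higher and 3 lower. Their part in the result was not tested.

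In heart the difference, read by the labels, went the same way and was smaller. A total of 9 members were at least 2-fold higher in the heart labelled *Dnmt3a* KO, against 1.38% of all genes tested, and 1 was lower, against 1.20%. The interferon-stimulated members had a median log2 ratio of 0.49 (0.34 to 0.77), with 37 of 42 above 0, where all genes had a median of 0 and 48.7% above 0. All 8 IFIT and OAS genes, all 3 guanylate-binding proteins and 7 of 8 restriction factors and nucleotide enzymes were above 0, with medians of 0.45, 0.49 and 0.74. Many members were under 2 FPKM in heart, and with a pseudocount of 0.1 in place of 1 the count was 20, against 3.46% of all genes tested, and the median 0.90. In liver that setting gave a count of 24, against 1.92%, and a median of 1.14.

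*Oasl2* led in heart, measuring 1.48 FPKM in WT and 10.3 FPKM in the KO-labelled library, 6.96-fold (5.48 to 8.89). *Cmpk2* was 0.932 and 5.53 FPKM, 5.94-fold (4.43 to 8.15), and *Rsad2* was 1.22 and 4.21 FPKM, 3.45-fold (2.72 to 4.44). On their shortest transcripts, *Cmpk2* rests on 2 reads in WT heart and 11 in the KO-labelled heart, and *Rsad2* on 5 and 15. By FPKM the order within this pair was the reverse of that in liver, but it is poorly determined. *Isg15* was 3.90 and 14.1 FPKM, 3.63-fold (2.53 to 5.30). *Ifitm3*, which blocks the entry of enveloped viruses, was 21 and 49.5 FPKM (log2 ratio 1.197), and the remaining members past 2-fold were *Rtp4*, *Ifi44*, *Lgals3bp* and *Xaf1*, with log2 ratios of 1.02 to 1.1. *Irf7*, which was 6.15-fold higher in the KO-labelled liver, was 2.66 and 3.07 FPKM in heart. *Irf1* was again lower, at 6.45 and 3.61 FPKM (−0.69).

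The 10 macrophage markers in heart summed to 125 FPKM in WT and 135 FPKM in the KO-labelled library, with 6 of 10 higher and a median log2 ratio of 0.03. Hepatocyte markers summed to 33.4 and 7.36 FPKM and all 7 erythroid markers were lower in the KO-labelled heart (median log2 ratio −0.68). The part of these cells in the result was not tested.

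Heart and liver shared 7 of the members counted as higher: *Cmpk2*, *Ifitm3*, *Isg15*, *Oasl2*, *Rsad2*, *Rtp4* and *Xaf1*, which are 77.8% of the heart list and 38.9% of the liver list, where 0.148% of all genes tested were at least 2-fold higher in both. Of the 42 interferon-stimulated members, 37 were above 0 in both tissues, where 18.5% of all genes were, the exceptions being *Dhx58*, *Herc6*, *Ifi27*, *Ifitm1* and *Irf1*. Both tissues of a genotype carry the same number in their titles and may come from 1 embryo, so they cannot be taken as separate samples of that genotype. The direction in heart rests on the labels, and *Dnmt3a* RNA was higher in the heart labelled KO, which does not settle them. Turning the heart labels only changes the sign of the same heart ratios. Then 0 members would be at least 2-fold higher in both tissues, where 0.0989% of all genes would. Of the 42, 3 would be above 0 in both, where 17.8% of all genes would. Whether the labels are right was not tested.

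**Figure D2:**
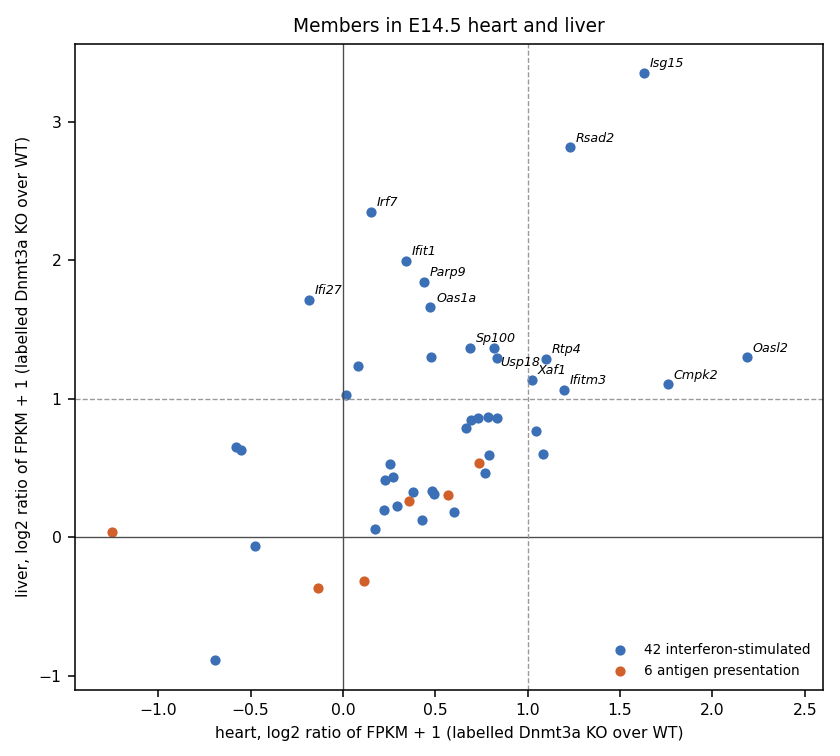
Log2 ratio of FPKM + 1, library labelled *Dnmt3a* KO over WT, in E14.5 heart (horizontal axis) and E14.5 liver (vertical axis) for each member, with dashed lines at 2-fold. *Isg15* (1.63 and 3.35) and *Rsad2* (1.23 and 2.82) lie far out in both tissues, *Irf7* (0.15 and 2.35) in liver alone, *Oasl2* (2.19 and 1.30) is farthest right, and none of the 6 antigen presentation genes is above 1 on either axis.

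Antigen presentation genes were mixed in tissues, with 4 of 6 above 0 in heart and in liver. *H2-K1*, a class I heavy chain, was 10.2 FPKM in WT heart and 9.22 FPKM in the heart labelled KO, and 88.2 and 68.1 FPKM in liver. *H2-D1*, the other classical heavy chain, was 15.7 and 23.7 FPKM in heart and 58.3 and 72.3 FPKM in liver. Reads of these closely related genes may be split between them. *Tap1*, a subunit of the peptide transporter, had log2 ratios of 0.74 in heart and 0.54 in liver, the highest of the 6 in each tissue. The immunoproteasome subunit *Psmb9* was 2.05 FPKM in WT heart and 0.282 FPKM in the KO-labelled heart (log2 ratio −1.25), on 104 and 12 reads if all came from its longest transcript and on 9 and 1 if from its shortest, and 6.70 and 6.91 FPKM in liver. *Psmb9* and *Tap1* share 212 bases on opposite strands and had opposite signs in heart.

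Promoters were examined because so many members moved together. RefSeq promoter sequences (GRCm38.p6, 250 bases before to 50 after the start) were found for 39 of the 48 members; *Oas2*, *Mx2*, *Usp18*, *Ifi27*, *Dhx58*, *Zbp1*, *Parp9*, *Parp14* and *Rtp4* had no entry. The core of the interferon-stimulated response element, GAAA repeated after 2 bases of any kind, was searched on both strands and was present in 17 of 39 member promoters (43.6%), against 3.99% of the promoters of all 27025 symbols. TTCNNNGAA, the gamma-activated site, reads the same on both strands and was present in 9 of 39 (23.1%), against 9.55% of all. The promoters of 5 members held both, and in *Bst2* and *Ifitm3* the matches shared bases. Among antigen presentation genes only *B2m* held the first motif and only *Psmb8* the second. In liver, whose values helped choose the members, 7 of 16 interferon-stimulated members with that core and 7 of 17 without were at least 2-fold higher. A match is a description of letters and not evidence of a used site. The promoters below belong to the leading members in liver, to a member that differed with GSK126, and to an antigen presentation gene that holds the core yet differed little, with matches to that core, or their reverse complement, in capitals, 5′ to 3′ on the gene's strand.
Isg15 (chr4:156200769-156201068, minus strand): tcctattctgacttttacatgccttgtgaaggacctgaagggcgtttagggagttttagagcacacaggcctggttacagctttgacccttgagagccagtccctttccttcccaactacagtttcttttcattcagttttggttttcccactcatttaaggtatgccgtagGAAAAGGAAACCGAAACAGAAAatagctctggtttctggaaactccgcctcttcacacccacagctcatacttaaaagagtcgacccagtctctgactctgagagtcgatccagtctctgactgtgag
Rsad2 (chr12:26456403-26456702, minus strand): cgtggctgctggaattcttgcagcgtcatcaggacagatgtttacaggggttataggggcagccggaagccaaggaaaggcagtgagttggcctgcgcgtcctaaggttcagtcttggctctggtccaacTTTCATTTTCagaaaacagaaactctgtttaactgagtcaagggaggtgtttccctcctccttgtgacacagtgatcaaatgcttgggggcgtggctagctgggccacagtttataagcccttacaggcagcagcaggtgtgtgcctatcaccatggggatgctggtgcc
Bst2 (chr8:71537423-71537722, minus strand): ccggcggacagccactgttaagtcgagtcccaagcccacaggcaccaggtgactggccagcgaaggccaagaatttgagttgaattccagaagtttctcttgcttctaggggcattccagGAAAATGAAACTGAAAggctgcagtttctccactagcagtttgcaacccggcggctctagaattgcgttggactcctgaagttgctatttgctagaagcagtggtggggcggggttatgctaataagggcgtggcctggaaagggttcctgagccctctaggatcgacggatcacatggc
B2m (chr2:122147437-122147736, plus strand): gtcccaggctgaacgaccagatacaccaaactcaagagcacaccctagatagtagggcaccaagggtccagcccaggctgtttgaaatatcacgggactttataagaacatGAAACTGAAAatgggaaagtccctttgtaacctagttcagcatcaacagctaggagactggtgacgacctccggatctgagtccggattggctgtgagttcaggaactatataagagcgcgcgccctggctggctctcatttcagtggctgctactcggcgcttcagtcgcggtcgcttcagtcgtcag
The *Isg15* promoter held 3 overlapping matches, the first at −78 from the start, *Bst2* held 2 overlapping matches from −130, and *Rsad2* and *B2m* held 1 each, at −120 and −139.

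In MEFs the sign, read by the labels, was reversed: interferon-stimulated genes were slightly lower in the library labelled *Dnmt3a* KO than in WT, with either treatment. With DMSO, 34 of 42 were below 0 and 8 above, where 53.0% of all genes were above 0, with a median log2 ratio of −0.32 (−0.42 to −0.20) beside 0.02 for all genes. With GSK126, 38 of 42 were below 0 and 4 above, where 49.3% of all genes were above 0, with a median of −0.37 (−0.53 to −0.26) beside 0 for all genes, and 32 of 42 were below 0 with both treatments, where 26.3% of all genes were. With DMSO all 6 genes of ISG15 conjugation and ubiquitin ligation, all 3 guanylate-binding proteins and 7 of 8 IFIT and OAS genes were below 0, with medians of −0.57, −0.41 and −0.41, while 3 of 4 signalling and transcription factors were above 0 (median 0.09). Few members reached 2-fold. With DMSO 2 members were lower, against 1.54% of all genes tested, and 1 was higher, against 3.27%. With GSK126 4 were lower, against 2.14%, and 0 higher, against 2.12%. With a pseudocount of 0.1 the counts of lower members were 7, against 3.46%, and 11, against 4.81%.

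*Isg15* had the lowest log2 ratio of FPKM + 1 with DMSO: it measured 26.8 FPKM in WT MEFs and 10.1 FPKM in MEFs labelled KO, and it was 48.9 and 19.9 FPKM with GSK126. Its level in the KO-labelled library was 0.376-fold (0.306 to 0.464) and 0.407-fold (0.347 to 0.476) of WT. *Ifit3* was 11.3 and 5.08 FPKM with DMSO (−1.01) and 19.1 and 9.61 FPKM with GSK126 (−0.92), and *Ifit1* was 6.68 and 3.08 FPKM, then 13.1 and 8.12 FPKM. *Ifi44*, at a low level, was 1.32 and 0.190 FPKM with DMSO, 0.144-fold (0.0835 to 0.239), the lowest ratio of plain FPKM. For these genes the WT library was the higher within each treatment. *Xaf1* (24.0 and 10.2 FPKM) and *Cmpk2* (4.604 and 0.914 FPKM) were past 2-fold only with GSK126. *Stat2* was the exception among called members with DMSO, with 4.45 FPKM (WT) and 9.91 FPKM (labelled KO), a log2 ratio of 1.001 that went under 2-fold once the all-gene median was subtracted. With GSK126 it was 9.89 and 7.27 FPKM, so the WT library with DMSO stood alone as low.

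Antigen presentation members had medians near 0 in these comparisons, 0.10 with DMSO and 0.04 with GSK126. *Psmb8*, an immunoproteasome subunit, was nevertheless lower in both KO-labelled libraries, at 19.8 and 9.63 FPKM with DMSO (−0.97) and 22.7 and 9.48 FPKM with GSK126 (−1.18). *H2-K1* was 55.4 and 63.2 FPKM with DMSO and 113 and 111 FPKM with GSK126. All 10 macrophage markers were lower in the KO-labelled MEFs, with summed FPKM of 1881 and 1479 with DMSO (median log2 ratio −0.63) and 1938 and 1358 with GSK126 (−0.49), and all 6 fibroblast markers were lower as well (medians −0.43 and −0.54). Their part in the result was not tested.

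**Figure D3:**
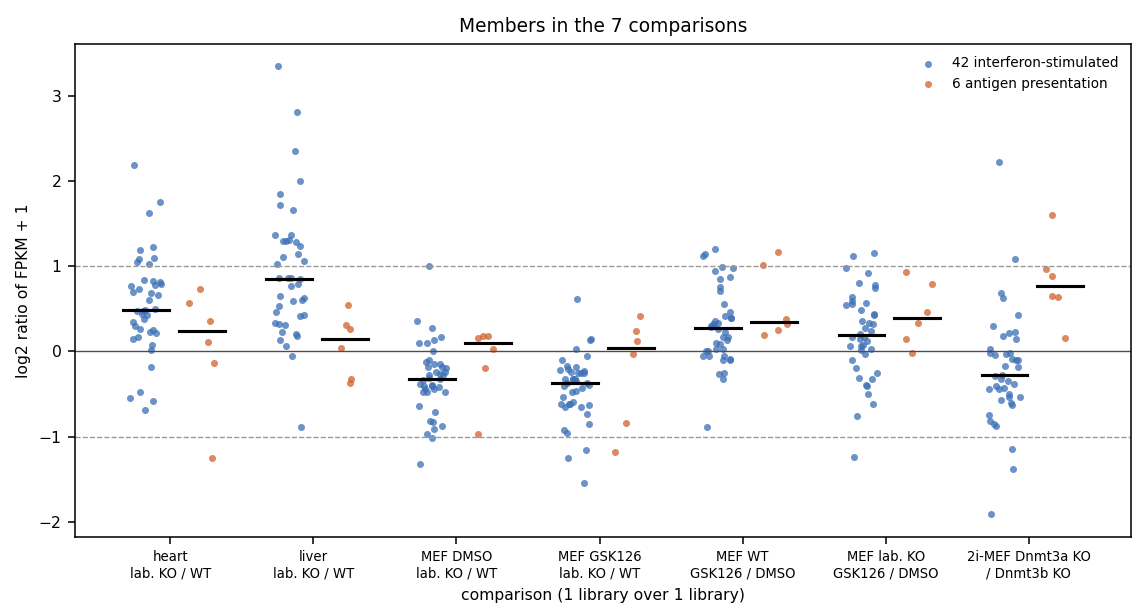
Log2 ratio of FPKM + 1 of each member in the 7 comparisons, with 42 interferon-stimulated genes in blue and 6 antigen presentation genes in orange; black bars are medians and dashed lines mark 2-fold. The blue median is above 0 in heart (0.49) and liver (0.86), below 0 in MEFs with DMSO (−0.32) and GSK126 (−0.37), and above 0 for GSK126 over DMSO (0.28 in WT and 0.19 in KO-labelled MEFs).

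GSK126 was accompanied by higher levels of most members. In WT MEFs 38 of 48 were above 0, where 48.9% of all genes were, and in MEFs labelled *Dnmt3a* KO 35 of 48, where 43.9% of all genes were, with 31 above 0 in both, where 24.8% of all genes were. The median log2 ratio of the interferon-stimulated members was 0.28 (0.08 to 0.39) in WT and 0.19 (0.06 to 0.43) in the KO-labelled MEFs, beside 0 and −0.03 for all genes. Roles differed. All 6 genes of ISG15 conjugation and ubiquitin ligation were above 0 in both. IFIT and OAS genes had medians of 0.04 (4 of 8 above 0) in WT and 0.26 (5 of 8) in KO-labelled MEFs. Sensors had 0.30 (4 of 5) and −0.03 (2 of 5), and signalling and transcription factors 0.44 (3 of 4) and −0.13 (2 of 4). Restriction factors and nucleotide enzymes had 0.02 and 0.07, and guanylate-binding proteins 0.003 and 0.20. In WT MEFs 5 members were at least 2-fold higher, against 1.46% of all genes tested, and 0 lower, against 1.07%. In KO-labelled MEFs 2 were higher, against 1.41%, and 1 lower, against 2.37%. With a pseudocount of 0.1 the counts in KO-labelled MEFs were 6, against 3.00%, and 3, against 5.25%.

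*H2-K1* was 55.4 FPKM with DMSO and 113 FPKM with GSK126 in WT MEFs, 2.04-fold (1.92 to 2.16), and 63.2 and 111 FPKM in KO-labelled MEFs. The 2 libraries with GSK126 were the highest of all 10 for *H2-K1*, *H2-D1*, *Tap1* and *Bst2*; for *B2m* the *Dnmt3a* KO 2i-MEFs (790 FPKM) lay between them (788 and 857 FPKM). *Tap1* was 26.2 and 33.1 FPKM in WT and 22.9 and 44.5 FPKM in KO-labelled MEFs. All 6 antigen presentation members were above 0 in WT MEFs and 5 of 6 in KO-labelled MEFs, where *Psmb8* was −0.02, with medians of 0.35 and 0.40. *Bst2*, which encodes tetherin, the protein that holds budding virus at the cell surface, was 82.1 and 163 FPKM in WT (log2 ratio 0.98) and 58.6 and 128 FPKM in KO-labelled MEFs (1.12).

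*Usp18* (2.28 and 6.59 FPKM), *Ifih1* (2.27 and 6.21 FPKM), *Cmpk2* (1.58 and 4.604 FPKM) and *Psmb9* (4.85 and 12.2 FPKM) were at least 2-fold higher with GSK126 in WT MEFs. In KO-labelled MEFs their log2 ratios were 0.75, 0.54, 0.01 and 0.14, where that of *Usp18* (1.71 and 3.55 FPKM) is a 2.07-fold ratio of FPKM. *Ifit1* was at least 2-fold higher in the KO-labelled MEFs (3.08 and 8.12 FPKM, log2 ratio 1.16) and 0.87 in WT. These differences between genotypes were not tested. *Ifitm1*, unlike its neighbour *Ifitm3* within chr7:140967221-141010770, was lower with GSK126: 41.57 and 21.99 FPKM in WT (−0.89) and 45.9 and 18.8 FPKM in KO-labelled MEFs (−1.24), while *Ifitm3* stayed at 438 and 440 FPKM and at 365 and 412 FPKM. Of the 10 macrophage markers 5 were higher with GSK126 in WT (summed FPKM 1881 and 1938, median log2 ratio 0.03) and 8 in KO-labelled MEFs (median 0.12), where the sum was nevertheless lower (1479 and 1358) with *Lyz2* at 802 and 638 FPKM. Of the 6 fibroblast markers 5 were lower with GSK126 in each genotype, with medians of −0.38 and −0.45 and summed FPKM of 11741 and 8739 in WT and 8987 and 5937 in KO-labelled MEFs. Their part was not tested. The 4 MEF comparisons draw on the same 4 libraries.

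**Figure D4:**
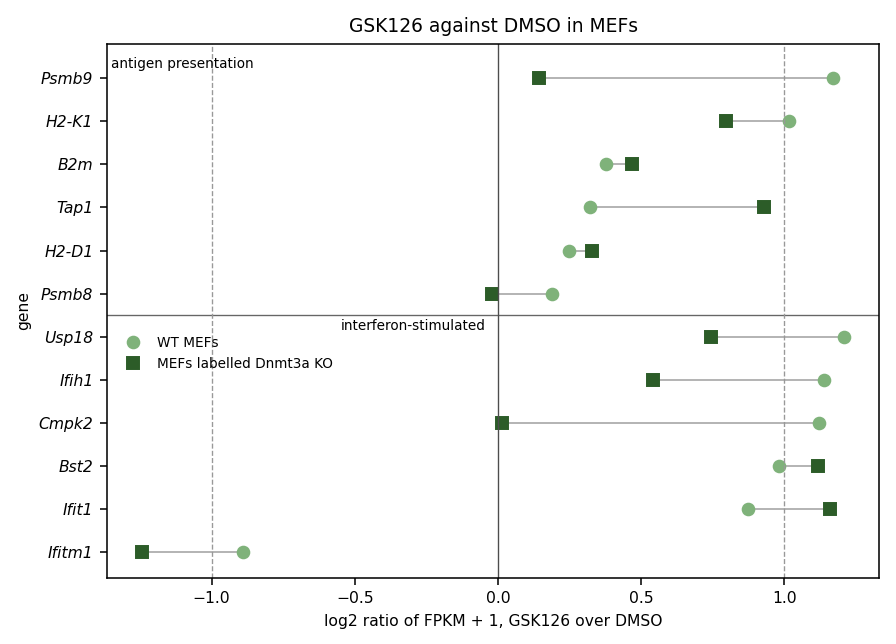
Log2 ratio of FPKM + 1, GSK126 over DMSO, in WT MEFs (circles) and MEFs labelled *Dnmt3a* KO (squares) for the 6 antigen presentation members and for the interferon-stimulated members at least 2-fold changed in either; dashed lines mark 2-fold. *H2-K1* (1.01 and 0.80) and *Bst2* (0.98 and 1.12) lie close together, *Cmpk2* (1.12 and 0.01) and *Psmb9* (1.17 and 0.14) lie apart, and *Ifitm1* (−0.89 and −1.24) is on the left.

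In 2i-MEFs the interferon-stimulated and antigen presentation members parted. In the longer gene list given below, 53 further interferon-stimulated genes had a median log2 ratio of 0, and 17 further class I genes 0.16. *Dnmt3a* KO over *Dnmt3b* KO gave a median log2 ratio of −0.28 (−0.44 to −0.04) for the interferon-stimulated members, with 31 of 42 below 0. For the antigen presentation members it was 0.77, with 6 of 6 above 0, beside 0.02 for all genes and 52.0% of them above 0. All of the 6 but *B2m*, on chr2, lie on chr17, and *B2m* had the lowest ratio (0.16). *Psmb9*, *Tap1* and *Psmb8* adjoin within chr17:34181988-34201454, so the 6 are not separate observations. At 2-fold, 3 members were higher, against 4.23% of all genes tested, and 3 lower, against 2.51%, or 7, against 8.40%, and 8, against 4.51%, if 0.1 is the pseudocount. *Irf7* measured 1.64 FPKM with *Dnmt3a* KO and 8.95 FPKM with *Dnmt3b* KO (log2 ratio −1.91), *Oasl2* 0.905 and 3.95 FPKM (−1.38) and *Isg15* 9.23 and 21.6 FPKM (−1.14). *Ifitm1* was 17.1 and 2.87 FPKM (2.22), with an interval of the ratio of 3.60 to 10.3. *Sp100* was 1.93 and 0.382 FPKM.

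*Psmb9* in 2i-MEFs was 2.61 FPKM with *Dnmt3a* KO and 0.190 FPKM with *Dnmt3b* KO, on 76 and 5 reads by its longest transcript and 7 and 0 by its shortest, so its ratio of 13.7 (5.23 to 40.4 on the longest) is poorly determined. *H2-K1* was 47.0 and 23.5 FPKM, *H2-D1* 126 and 79.8 FPKM, *Tap1* 9.52 and 4.71 FPKM and *Psmb8* 7.39 and 4.399 FPKM. The *Dnmt3a* KO library was the higher for each. Macrophage markers were at 29.2 and 16.4 FPKM in sum, with 8 of 10 higher in *Dnmt3a* KO and *Cx3cr1* and *Fcgr1* listed at 0 there and *Adgre1* at 0 in *Dnmt3b* KO, and their part was not tested. Reads of F1 cells were mapped to the reference genome, and the effect of strain differences on the polymorphic class I genes was not tested.

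**Figure D5:**
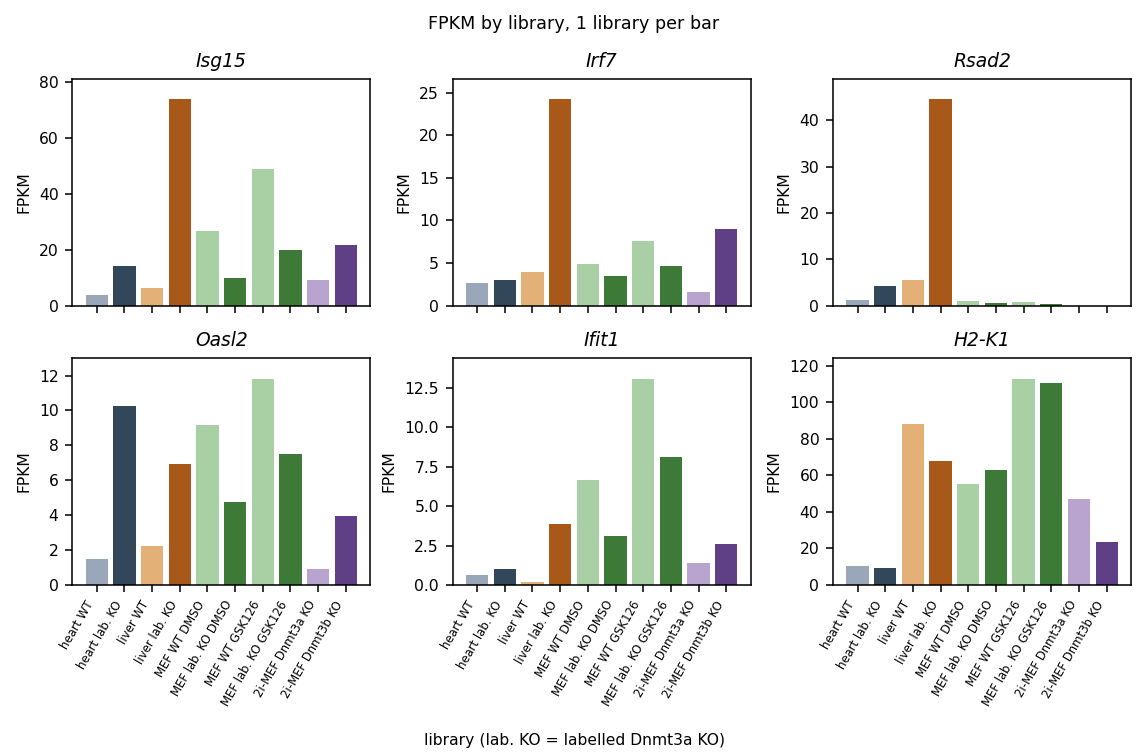
FPKM of 6 members in the 10 libraries, 1 bar per library. *Isg15*, *Irf7* and *Rsad2* peak in the liver labelled *Dnmt3a* KO (73.7, 24.2 and 44.5 FPKM), *Oasl2* and *Ifit1* peak in WT MEFs with GSK126 (11.8 and 13.1 FPKM), and *H2-K1* is highest in the MEFs with GSK126 (113 and 111 FPKM).

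The rest of the pathway was read from a list of 124 further genes. Of 21 interferon genes, 19 were at 0 in all 10 libraries. *Ifna13* was above 0 in *Dnmt3b* KO 2i-MEFs alone (0.353 FPKM), and *Ifnz* did not exceed 0.187 FPKM in any library. The receptors were present throughout: *Ifnar1* measured 11.6 to 30.9 FPKM and *Ifnar2* 30.03 to 58.55 FPKM, and none of the 6 receptor genes differed 2-fold in any comparison. *Nlrc5*, the class I transactivator, was at most 1.84 FPKM in any library. It is 1 of 17 genes of class I loading and regulation in the list. In heart, liver, MEFs with DMSO and MEFs with GSK126, 10, 11, 5 and 4 of the 17 were above 0. Their median log2 ratios were 0.02, 0.16, −0.21 and −0.16. For GSK126 over DMSO 9 were above 0 in WT (0.03) and 11 in KO-labelled MEFs (0.23), and in 2i-MEFs 14 were (0.16). The shares of all genes above 0 are those given above for each comparison.

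In liver 8 of the 124 genes were at least 2-fold higher, against 0.890% of all genes tested, and 0 lower, against 1.72%. Among them were *Irgm1* (16.1 and 65.0 FPKM), *Igtp* (5.52 and 22.6 FPKM) and *Irgm2*, which are immunity-related GTPases, *Rnf213* (4.38 and 16.7 FPKM), *Adar*, *Trim21* and *Tlr3*. Of the 53 further interferon-stimulated genes among the 124, 43 were above 0 in liver (median log2 ratio 0.41), 35 in heart (0.08) and 16 in MEFs with DMSO (−0.19), where 36.8%, 48.7% and 53.0% of all genes were above 0. In MEFs with GSK126 12 were above 0 (−0.24), where 49.3% of all genes were. For GSK126 over DMSO it was 34 in WT (0.13) and 32 in KO-labelled MEFs (0.10), where 48.9% and 43.9% were. In 2i-MEFs 24 were above 0 and 22 below, with a median of 0, where 52.0% of all genes were above 0. Outside liver the number of the 124 genes past 2-fold was 0 to 4 in each direction, and the share of all genes was 1.07% to 4.23%, so these are named as values only. In heart *Mndal* was higher (0.65 and 3.20 FPKM) and *H2-Aa* lower, listed at 0 in the KO-labelled heart and 1.43 FPKM in WT. In MEFs with DMSO *Tlr7*, *Igtp*, *Ccl5* and *Nmi* were at least 2-fold lower in the KO-labelled library, and with GSK126 *Irf8*, *Iigp1* and *Tgtp1* were. With GSK126 against DMSO, *Tlr3* and *Cxcl10* were higher in WT MEFs and *Ccl5* (0.12 and 2.86 FPKM) in KO-labelled MEFs. In 2i-MEFs *Slfn2* was 0.44 FPKM with *Dnmt3a* KO and 8.27 FPKM with *Dnmt3b* KO (−2.69), *Pml* and *Oas1c* were also lower, and *Irf5*, *Socs3* and *H2-Q4* were higher.

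As a description of likeness, each gene averaging 1 FPKM or more was correlated over the 10 libraries with the mean standardised log2(FPKM + 1) of the 37 interferon-stimulated members that reached that mean. Libraries of a tissue share their source, so no p is given. The 10 most alike genes outside the members were *Irgm2* (Pearson's r 0.94), *Irgm1* (0.90), *Dhrs9*, *Rpn2*, *Ankfy1*, *Fam117b*, *Rpl39l*, *Gm6548*, *Tmem167* and *Spty2d1* (0.86). Among the members themselves, *Eif2ak2* (0.94), *Irf9* (0.93) and *Isg15* (0.91) followed the profile most closely, while *Rsad2* (0.14), *Irf1* (0.22) and *Cmpk2* (0.22) followed it least. These genes are themselves part of the profile, which raises their correlations, so they are not comparable with those of outside genes.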

How the data were processed

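RNA was sequenced as single reads from stranded poly(A) libraries. The authors trimmed the reads, mapped them to mm10 with TopHat2 on a GENCODE annotation, kept uniquely mapped reads and computed FPKM with Cufflinks 2.2.1; tool versions other than this one are given differently in the study's methods and in the submitters' processing notes. The deposited table holds FPKM for 52609 gene rows in 10 libraries, without counts, and rows of the same symbol were summed here. No member has more than 1 row. After conversion of 0-based starts to 1-based ones, 47 of 48 members began where GENCODE M21, the source of transcript lengths, places them. The exception was *Psmb9*, so its reads and interval rest on a gene model that differs from that of the deposited values.

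Depth was estimated from the steps of values under 10 reads of genes with 1 transcript of at least 1500 bases, of which 96.5% to 98.0% lay within 0.1 of a whole number. Reads of a member were calculated on its longest transcript, and intervals of ratios are exact (Clopper-Pearson, 95%), covering counting error only. If shorter transcripts were the ones expressed, reads are fewer and intervals wider. Log2 ratios used a pseudocount of 1, which understates differences of low genes. Calls were at least 2-fold, and the background is the 14150 symbols with a mean of at least 1 FPKM. Intervals of medians come from order statistics over the members and leave out the spread between samples. Scripts used Python 3.11.15, pandas 2.3.3 and scipy 1.17.1, and the estimate of depth was tested on simulated data. A pseudocount of 0.1, centring on the median of all genes, a filter on low members and another treatment of repeated symbols were tried.

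The members and gene lists were chosen with earlier results of these data known. Members at least 2-fold changed were named (beyond 10, the 6 largest rises and 4 largest falls, with the others listed by name), with further pathway genes at least 2-fold changed, receptors, *Nlrc5*, *Dnmt3a*, markers and the 10 most alike genes. Columns without a sample numbered 0. The values of 1 pathway gene are not reported here.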

Additional observations from a re-analysis of the deposited data

Results flagged for a closer look

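The comparison of the library labelled *Dnmt3a* KO with WT had opposite signs in tissues and in cultured MEFs, each from 1 library per condition, and the difference was not tested. The median log2 ratio of the interferon-stimulated members was 0.49 in heart and 0.86 in liver, against −0.32 in MEFs with DMSO and −0.37 in MEFs with GSK126. The direction in heart and in MEFs rests on the labels, and *Dnmt3a* RNA was higher in the libraries labelled KO there. That level does not settle the labels, which were not tested. With those labels turned, heart would be opposed to liver and to MEFs. *Isg15* had log2 ratios of 1.63 in heart, 3.35 in liver, −1.33 in MEFs with DMSO and −1.26 in MEFs with GSK126. *Xaf1* had 1.02, 1.14, −0.27 and −1.16 in the same order, and *Cmpk2* had 1.76, 1.105, −0.44 and −1.55.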

How the results depend on the processing

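Of 28 counts and medians, 10 moved (a count by over 1.5 times, a median out of its interval) with a pseudocount of 0.1, 1 with centring and 0 with only the 43 members averaging 1 FPKM or more, and 0 were reversed. With a pseudocount of 0.1 the members at least 2-fold higher numbered 20 in heart in place of 9, 6 for GSK126 in MEFs labelled *Dnmt3a* KO in place of 2 and 7 in 2i-MEFs in place of 3. The members at least 2-fold lower then numbered 1 in liver in place of 0, 7 in MEFs with DMSO in place of 2, 11 in MEFs with GSK126 in place of 4, 3 for GSK126 in KO-labelled MEFs in place of 1 and 8 in 2i-MEFs in place of 3. The median of the interferon-stimulated members was then 0.90 in heart in place of 0.49 and −0.45 in MEFs with DMSO in place of −0.32. Centring on the median of all genes left 0 members higher in MEFs with DMSO in place of 1. The smaller pseudocount gives members of few reads larger ratios by its construction. Another treatment of repeated symbols could change nothing, since no member has more than 1 row. No paired analysis was run: each condition has 1 library, and no result here comes from a test. Additive fits over the 4 MEF libraries, or over tissue and title number, were not made. Low members are limited by depth.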
